A study of Mus musculus with 16 samples.

Results

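The TCA cycle oxidizes acetyl units to carbon dioxide in the mitochondrial matrix, and its intermediates are topped up by anaplerosis, the entry of carbon by routes other than acetyl-CoA. The values of 30 genes of these routes were read from a table of 55492 genes in left ventricles of mice with and without PKM2, the M2 splice form of pyruvate kinase, which makes pyruvate from phosphoenolpyruvate. The genes were taken by name. They encode 7 proteins that make citrate or oxidize it as far as 2-oxoglutarate (Cs, Aco1, Idh1, Idh2, Idh3a, Idh3b and Idh3g), 6 that carry 2-oxoglutarate to succinate (Ogdh, Dlst, Dld, Suclg1, Suclg2 and Sucla2) and 7 that carry succinate to oxaloacetate (Sdha, Sdhb, Sdhc, Sdhd, Fh1, Mdh1 and Mdh2). Another 5 act between the cycle and pyruvate or phosphoenolpyruvate (Pcx, Pck2, Me1, Me2 and Me3), 3 join the cycle to glutamate and aspartate (Got1, Got2 and Glud1), and 2 are carriers of the inner mitochondrial membrane (Slc25a1 for citrate and Slc25a11 for 2-oxoglutarate). All 30 were found in the table, and all passed the filter on low values.

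RNA came from 16 hearts of male C57BL/6 mice aged 8-12 weeks, 1 library per animal. The controls, PKM2fl/fl, carried loxP sites around exon 10 of Pkm and no Cre, so both genotypes descend from the floxed line. In PKM2-/- mice that exon, which only PKM2 uses, had been deleted in the germline by a CMV-Cre cross and Cre had then been bred out, so PKM2 is missing from every cell type and not from cardiomyocytes alone. Each genotype was sampled untreated at baseline (n = 2), 3 days after sham surgery (n = 3) and 3 days after myocardial infarction (MI) by permanent ligation of the left anterior descending artery (n = 3). Whole left ventricle was frozen and pulverized, so infarcted and spared muscle were measured together.

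In the working heart the cycle supplies most of the NADH that feeds oxidative phosphorylation, and cardiomyocytes are filled with mitochondria. Several steps have more than 1 enzyme. NAD-linked isocitrate dehydrogenase is a complex of 3 kinds of subunit (Idh3a, Idh3b and Idh3g), whereas the NADP-linked enzymes are cytosolic (Idh1) or mitochondrial (Idh2). Succinyl-CoA ligase pairs the shared subunit Suclg1 with Sucla2 to make ATP or with Suclg2 to make GTP. Malic enzyme likewise has a cytosolic form (Me1) and mitochondrial forms (Me2 and Me3), and malate dehydrogenase and aspartate aminotransferase, which together run the malate-aspartate shuttle, each have a cytosolic (Mdh1, Got1) and a mitochondrial (Mdh2, Got2) form.

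Library size ranged from 20623769 to 71855101 reads, and reads from rRNA-related loci took 15.8% to 46.1% of a library. In 4 libraries that share was over 40%: replicates 1 and 3 of PKM2fl/fl MI, replicate 1 of PKM2-/- baseline and replicate 3 of PKM2-/- sham. Pkm as a whole gene read between 9108 and 9602 normalized counts at baseline, between 7779 and 9444 after sham and between 9576 and 12076 after MI in PKM2fl/fl. In PKM2-/- it read between 11981 and 12984, between 11710 and 14242 and between 10120 and 16113, and since PKM1 and PKM2 are counted under 1 gene these values do not check the deletion. Values below are normalized counts, the read count divided by the size factor of the library, and fold changes are on the log2(value + 1) scale. In RefSeq the 30 genes lie on 17 chromosomes and 10 of them overlap another gene, the partner with the highest mean relative to its member after Lrfn4 (below) being Rnf167, at 11.0% of Slc25a11. Reads of near-identical copies such as processed pseudogenes may be split or dropped, since the multi-mapping setting is not known here. A gene was called at an adjusted p under 0.05 in limma-trend fitted over 20576 genes.

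Promoter sequence was available in RefSeq (GRCm38.p6, the build of mm10) for 27 of the 30 genes, as 250 bases before and 50 after the start of transcription. Because the genes that fell after MI fell together, these windows were searched on both strands for elements of factors known to act on mitochondrial genes. The NRF1 element with 1 central base left free was present in 4 of 27 (14.8%), against 5.19% of 27025 genes. Its strict palindromic form was in none of the 27, against 1.07%. The ERR element TCAAGGTCA was found in 1 of 27 (3.70%), against 0.466%, and the wider TNAAGGTCA, which includes it, in the same 1 against 1.43%. The GABPA element CCGGAAGT was in 1 of 27, the window of Dlst, against 4.31%. Those with an NRF1 element were Dld, Sucla2, Sdha and Sdhd, of which Sdhd also held the ERR element, 37 bases into the transcript at chr9:50603805-50603813, read as TGACCTTGA. Given here, 5′ to 3′ on the strand of the gene, are the stretches before the start site with the matches in capitals for the 3 genes whose NRF1 match lies upstream, and, for comparison, the last 100 bases before the start of Slc25a1, the gene that rose most in both genotypes, which held no match. Only Dld, Dlst, Sucla2, Sdha and Sdhd held a match of any kind. All other falling genes with a window, Cs and Idh2 among them, held none either. The stretch of Sdha is chr13:74350241-74350368, of Sdhd chr9:50603889-50603958, of Sucla2 chr14:73552739-73552785 and of Slc25a1 chr16:17928220-17928319, with Sucla2 on the plus strand and the others on the minus strand.
Sdha: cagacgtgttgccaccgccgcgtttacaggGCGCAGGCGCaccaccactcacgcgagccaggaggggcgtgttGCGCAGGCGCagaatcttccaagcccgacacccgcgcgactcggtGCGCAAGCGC
Sdhd: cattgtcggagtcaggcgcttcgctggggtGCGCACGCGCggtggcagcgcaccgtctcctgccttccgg
Sucla2: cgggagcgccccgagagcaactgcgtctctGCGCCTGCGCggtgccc
Slc25a1: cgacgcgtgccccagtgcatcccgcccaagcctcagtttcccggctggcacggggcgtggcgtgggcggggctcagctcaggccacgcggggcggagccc

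The 3 upstream NRF1 matches of Sdha begin 98, 55 and 10 bases before its start, that of Sdhd 79 bases before and that of Sucla2 17 bases before. A match describes the letters of the window, and no binding was measured.

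Comparing MI with sham asks what infarction did to these transcripts in each genotype. In both genotypes 24 of the 30 genes were lower after MI, 3 were higher (Pck2, Me2 and Slc25a1) and 3 were not called (Aco1, Idh1 and Glud1), and they were the same genes in each. Among all genes tested, 25.3% were called lower and 24.8% higher in PKM2fl/fl, and 28.1% lower and 28.7% higher in PKM2-/-. The median log2 fold change of the 30 was -1.32 in PKM2fl/fl and -1.51 in PKM2-/-, beside -0.0025 and 0.01 over all genes. With at least a 2-fold change required as well, 21 were lower and 2 higher in PKM2fl/fl (11.1% and 12.4% of all genes) and 23 lower and 2 higher in PKM2-/- (14.3% and 14.5%). Lower in both genotypes at once were 24 of 30, against 21.6% of all genes and against 36.0% of the 4436 genes that averaged 1000 normalized counts or more, of which 25 are among the 30 and 23 of those fell. Leaving out the 4 libraries with over 40% rRNA-related reads gave 24 lower and 3 higher in each genotype, with medians of -1.05 and -1.42, where 15.2% of all genes were lower and 15.5% higher in PKM2fl/fl and 27.8% and 27.9% in PKM2-/-. The PKM2fl/fl MI group is then 1 heart, whose spread is taken from the other groups.

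Of the 30 genes, 27 had no overlap between MI and sham hearts in each genotype. Among all genes, 59.0% had none in PKM2fl/fl and 62.3% in PKM2-/-, in one direction or the other. The 27 were the 24 that fell, with every MI heart below every sham heart, and the 3 that rose, with every MI heart above. The same values gave the calls, so this adds no separate support to them. Summed over the 24 genes, the level was between 257238 and 259265 normalized counts in PKM2fl/fl sham hearts and between 63161 and 117599 after MI. In PKM2-/- the sum was between 224906 and 260372 after sham and between 69084 and 91894 after MI. Of reads outside rRNA-related loci, all 30 genes together took 1.04% to 1.08% in PKM2fl/fl sham hearts and 0.298% to 0.617% after MI, and 0.918% to 1.01% and 0.362% to 0.507% in PKM2-/-.

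**Figure D1:**
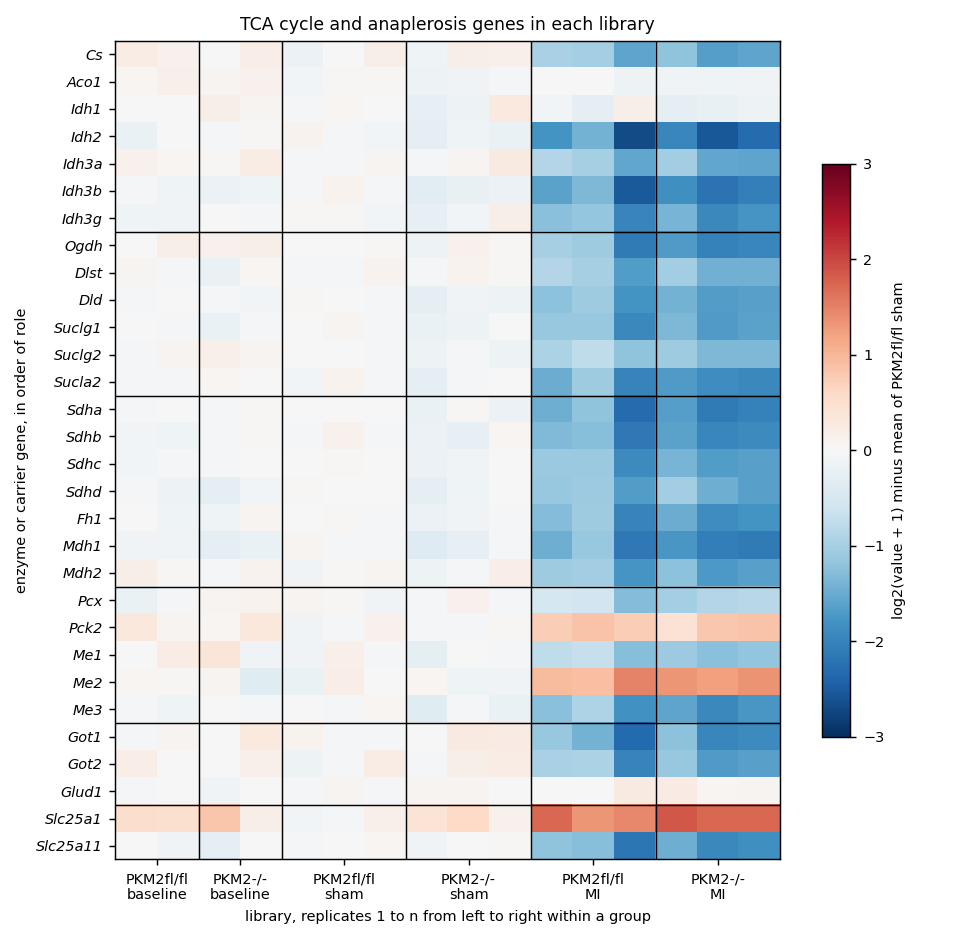
Each column is 1 library and each row 1 of the 30 genes in order of role, with horizontal lines between roles, and the color gives log2(value + 1) minus the mean of the PKM2fl/fl sham libraries, blue for lower and red for higher. The 24 genes that fell are blue in all 6 MI libraries and, within PKM2fl/fl MI, darkest in replicate 3, while Pck2, Me2 and Slc25a1 are red in all 6.

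Cs, which condenses acetyl-CoA with oxaloacetate to citrate, read 14267, 15941 and 18210 in the PKM2fl/fl sham hearts and 8199, 7887 and 5336 after MI. The values in knockout hearts were 14718, 18030 and 17820 in the PKM2-/- sham hearts and 6964, 5100 and 5398 after MI. It was 2.29-fold lower in PKM2fl/fl (log2 fold change -1.19 ± 0.17 SE, adjusted p = 3.98e-05) and 2.91-fold lower in PKM2-/- (-1.54 ± 0.17 SE, adjusted p = 2.78e-06), with no overlap between MI and sham in either genotype.

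All 3 subunits of the NAD-linked isocitrate dehydrogenase fell. Idh3b, a regulatory subunit, read 10842, 11916 and 10650 in the PKM2fl/fl sham hearts and 3650, 4385 and 1952 after MI. For the knockouts it was 8906, 9599 and 9790 in the PKM2-/- sham hearts and 3088, 2384 and 2696 after MI, and the change was 3.53-fold lower in PKM2fl/fl (log2 fold change -1.82 ± 0.21 SE, adjusted p = 6.24e-06) and 3.48-fold lower in PKM2-/- (-1.80 ± 0.21 SE, adjusted p = 4.10e-06). Idh3a, the catalytic subunit, went from 7816, 7771 and 8476 to 4334, 4044 and 2727 in PKM2fl/fl and from 7778, 8549 and 9671 to 3916, 2731 and 2685 in PKM2-/-. For Idh3g, the other regulatory subunit, the counts were 5861, 5887 and 5398 in the PKM2fl/fl sham hearts and 2413, 2534 and 1440 after MI, and 4820, 5432 and 6474 in the PKM2-/- sham hearts and 2157, 1505 and 1662 after MI. The log2 fold changes of Idh3a were -1.14 in PKM2fl/fl and -1.49 in PKM2-/-, and those of Idh3g were -1.47 in PKM2fl/fl and -1.66 in PKM2-/-. By these estimates the catalytic subunit fell least of the 3 in each genotype.

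Of the NADP-linked enzymes the mitochondrial one fell and the cytosolic one was not called, a difference tested below as a ratio. Idh2, which also supplies NADPH inside the mitochondrion, read 23250, 21252 and 20480 in the PKM2fl/fl sham hearts and 6247, 8152 and 3356 after MI, and 18060, 19771 and 18725 in the PKM2-/- sham hearts and 5584, 3708 and 4332 after MI. Its change was the furthest below 0 of the 30 in both genotypes, 3.90-fold lower in PKM2fl/fl (log2 fold change -1.96 ± 0.24 SE, adjusted p = 9.43e-06) and 4.21-fold lower in PKM2-/- (-2.07 ± 0.24 SE, adjusted p = 3.61e-06). Idh1, its cytosolic counterpart, read 1082, 1171 and 1129 in the PKM2fl/fl sham hearts and 1060, 938 and 1269 after MI, and 945, 1011 and 1388 in the PKM2-/- sham hearts and 931, 973 and 1020 after MI. These ranges overlapped, and the log2 fold change of Idh1 was -0.06 (95% interval -0.34 to 0.22, adjusted p = 0.729) in PKM2fl/fl and -0.17 (-0.46 to 0.11, adjusted p = 0.279) in PKM2-/-. Aco1, the cytosolic aconitase that doubles as the iron regulatory protein IRP1, was flatter still, with 879, 951 and 959 in the PKM2fl/fl sham hearts and 926, 938 and 832 after MI, and 842, 861 and 904 in the PKM2-/- sham hearts and 860, 847 and 864 after MI. Its log2 fold change was -0.05 (-0.22 to 0.12) and -0.02 (-0.19 to 0.15), and neither was called (adjusted p = 0.635 and 0.854).

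All 6 genes between 2-oxoglutarate and succinate fell, and the ones with the smallest adjusted p of the 24 were here. Dld, the dihydrolipoamide dehydrogenase shared by the 2-oxoglutarate and pyruvate dehydrogenase complexes, read 8082, 7774 and 7675 in the PKM2fl/fl sham hearts and 3339, 3766 and 2277 after MI. In knockouts Dld read 6419, 7243 and 7056 in the PKM2-/- sham hearts and 2923, 2448 and 2549 after MI. It was 2.56-fold lower in PKM2fl/fl (log2 fold change -1.36 ± 0.14 SE, adjusted p = 3.00e-06) and 2.62-fold lower in PKM2-/- (-1.39 ± 0.14 SE, adjusted p = 1.54e-06). Ogdh, the decarboxylase of the 2-oxoglutarate complex, went from 34394, 34271 and 35364 to 17319, 16476 and 7933 in PKM2fl/fl and from 31347, 38145 and 35603 to 10689, 8464 and 8879 in PKM2-/-. Dlst, the succinyltransferase core of that complex, had log2 fold changes of -1.18 in PKM2fl/fl and -1.34 in PKM2-/-, beside -1.40 in PKM2fl/fl and -1.91 in PKM2-/- for Ogdh. Replicate 3 of PKM2fl/fl MI was the lowest of its group for each of the 3.

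Sucla2, the ATP-forming subunit of succinyl-CoA ligase, read 8337, 9533 and 8695 in the PKM2fl/fl sham hearts and 3132, 4234 and 2189 after MI, and 7278, 8440 and 8800 in the PKM2-/- sham hearts and 2727, 2415 and 2326 after MI. It was 2.88-fold lower in PKM2fl/fl (log2 fold change -1.52 ± 0.17 SE, adjusted p = 5.56e-06) and 3.28-fold lower in PKM2-/- (-1.71 ± 0.17 SE, adjusted p = 1.22e-06). Suclg2, the GTP-forming subunit, read 2739, 2715 and 2657 in the PKM2fl/fl sham hearts and 1402, 1594 and 1169 after MI, and 2444, 2652 and 2428 in the PKM2-/- sham hearts and 1290, 1063 and 1069 after MI. Its fall was smaller, 1.96-fold lower in PKM2fl/fl (log2 fold change -0.97 ± 0.11 SE, adjusted p = 5.70e-06) and 2.21-fold lower in PKM2-/- (-1.14 ± 0.11 SE, adjusted p = 8.71e-07), which in PKM2fl/fl was short of 2-fold. Suclg1, the subunit that both forms share, read 4783, 5152 and 4628 in the PKM2fl/fl sham hearts and 2214, 2202 and 1259 after MI, and 4199, 4350 and 4886 in the PKM2-/- sham hearts and 1903, 1493 and 1585 after MI. Its log2 fold changes, -1.40 in PKM2fl/fl and -1.44 in PKM2-/-, lay between those of its partners.

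Succinate dehydrogenase is complex II of the respiratory chain as well as an enzyme of the cycle, and its 4 subunits fell together. Sdhb, the iron-sulfur subunit, read 11448, 13191 and 11475 in the PKM2fl/fl sham hearts and 4769, 4927 and 2706 after MI, and 10556, 10115 and 12522 in the PKM2-/- sham hearts and 3972, 3116 and 3198 after MI. It was 3.01-fold lower in PKM2fl/fl (log2 fold change -1.59 ± 0.18 SE, adjusted p = 7.02e-06) and 3.23-fold lower in PKM2-/- (-1.69 ± 0.18 SE, adjusted p = 2.48e-06). Sdhc, a membrane anchor, read 6267, 6447 and 6277 in the PKM2fl/fl sham hearts and 2939, 2944 and 1686 after MI, and 5607, 5840 and 6367 in the PKM2-/- sham hearts and 2399, 1989 and 2046 after MI. It was 2.59-fold lower in PKM2fl/fl (log2 fold change -1.37 ± 0.16 SE, adjusted p = 8.67e-06) and 2.77-fold lower in PKM2-/- (-1.47 ± 0.16 SE, adjusted p = 2.91e-06). Sdha, the flavoprotein that binds succinate, had log2 fold changes of -1.65 in PKM2fl/fl and -1.82 in PKM2-/-, and Sdhd, the other anchor, -1.30 in PKM2fl/fl and -1.22 in PKM2-/-. In each genotype the catalytic subunits Sdha and Sdhb had fold changes further from 0 than the anchors Sdhc and Sdhd, although the 95% intervals of the 4 overlapped. Fh1, fumarase, had log2 fold changes of -1.45 in PKM2fl/fl and -1.60 in PKM2-/-.

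Mdh1, the cytosolic malate dehydrogenase, read 34918, 31632 and 31728 in the PKM2fl/fl sham hearts and 11886, 14831 and 7437 after MI, and 24992, 27570 and 31888 in the PKM2-/- sham hearts and 9807, 7823 and 7551 after MI. Mdh2, the mitochondrial enzyme that closes the cycle, read 11198, 12498 and 12757 in the PKM2fl/fl sham hearts and 5835, 5904 and 3580 after MI, and 10832, 11873 and 13912 in the PKM2-/- sham hearts and 5178, 3684 and 3925 after MI. All MI hearts were below all sham hearts for both enzymes, with log2 fold changes of -1.58 in PKM2fl/fl and -1.75 in PKM2-/- for Mdh1 and -1.29 in PKM2fl/fl and -1.53 in PKM2-/- for Mdh2. The aminotransferases behaved alike in direction. Got1, the cytosolic one, read 12024, 10858 and 10815 in the PKM2fl/fl sham hearts and 5115, 4218 and 2242 after MI, and 11077, 13577 and 13317 in the PKM2-/- sham hearts and 4746, 2905 and 2995 after MI. Got2, the mitochondrial one, read 8211, 8696 and 10654 in the PKM2fl/fl sham hearts and 4639, 4701 and 2261 after MI, and 8762, 10352 and 10598 in the PKM2-/- sham hearts and 4143, 2825 and 2934 after MI. Their log2 fold changes were -1.62 in PKM2fl/fl and -1.87 in PKM2-/- for Got1 and -1.32 in PKM2fl/fl and -1.60 in PKM2-/- for Got2, and Slc25a11, which exchanges 2-oxoglutarate for malate in the same shuttle, changed by -1.55 in PKM2fl/fl and -1.74 in PKM2-/-. Of the 5 cytosolic enzymes, 3 fell (Mdh1, Me1 and Got1).

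**Figure D2:**
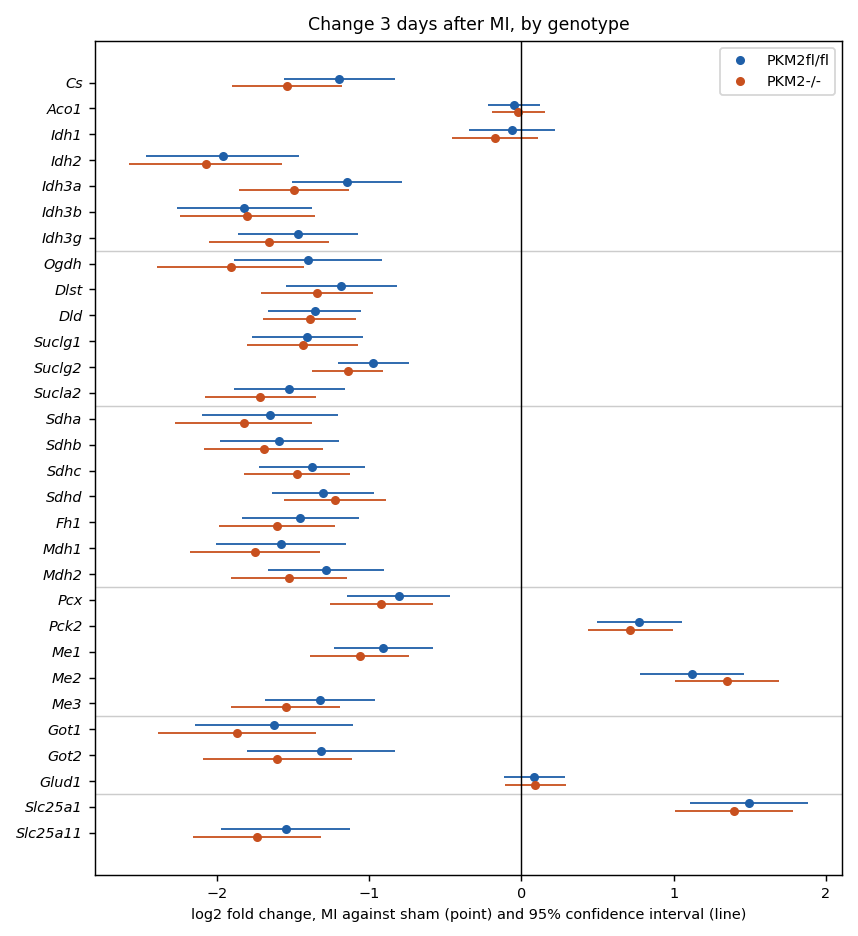
Points give the log2 fold change of MI against sham for each of the 30 genes, blue for PKM2fl/fl and orange for PKM2-/-, and lines the 95% confidence interval from limma-trend. The 24 falling genes lie from -2.07 (Idh2 in PKM2-/-) to -0.80 (Pcx in PKM2fl/fl), and the intervals of Aco1, Idh1 and Glud1 cross 0 in both genotypes.

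The 3 genes that rose were the lowest of the 30 per kilobase in PKM2fl/fl sham hearts. Slc25a1, which exports citrate from mitochondria to the cytosol, read 73, 74 and 87 in the PKM2fl/fl sham hearts and 257, 196 and 213 after MI, and 103, 118 and 85 in the PKM2-/- sham hearts and 286, 259 and 258 after MI. It was 2.82-fold higher in PKM2fl/fl (log2 fold change 1.49 ± 0.18 SE, adjusted p = 1.10e-05) and 2.63-fold higher in PKM2-/- (1.40 ± 0.18 SE, adjusted p = 1.24e-05). Me2, the NAD-linked mitochondrial malic enzyme, read 211, 276 and 241 in the PKM2fl/fl sham hearts and 470, 454 and 680 after MI, and 251, 222 and 225 in the PKM2-/- sham hearts and 602, 567 and 612 after MI. It was 2.18-fold higher in PKM2fl/fl (log2 fold change 1.12 ± 0.16 SE, adjusted p = 4.09e-05) and 2.55-fold higher in PKM2-/- (1.35 ± 0.16 SE, adjusted p = 5.27e-06). No MI heart overlapped a sham heart for either gene. Pck2, the mitochondrial phosphoenolpyruvate carboxykinase, read 206, 217 and 242 in the PKM2fl/fl sham hearts and 368, 398 and 370 after MI, and 212, 213 and 228 in the PKM2-/- sham hearts and 298, 385 and 398 after MI. It was 1.71-fold higher in PKM2fl/fl (log2 fold change 0.77 ± 0.13 SE, adjusted p = 1.80e-04) and 1.64-fold higher in PKM2-/- (0.71 ± 0.13 SE, adjusted p = 2.64e-04).

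The other genes of the pyruvate branch fell. Me3, the NADP-linked mitochondrial malic enzyme, read 1720, 1656 and 1788 in the PKM2fl/fl sham hearts and 727, 912 and 490 after MI, and 1328, 1661 and 1494 in the PKM2-/- sham hearts and 576, 449 and 509 after MI. It was 2.50-fold lower in PKM2fl/fl (log2 fold change -1.32 ± 0.17 SE, adjusted p = 1.52e-05) and 2.92-fold lower in PKM2-/- (-1.55 ± 0.17 SE, adjusted p = 2.49e-06). Me1, the cytosolic malic enzyme, read 2114, 2500 and 2188 in the PKM2fl/fl sham hearts and 1343, 1390 and 938 after MI, and 1854, 2266 and 2174 in the PKM2-/- sham hearts and 1069, 946 and 993 after MI, with log2 fold changes of -0.91 in PKM2fl/fl and -1.06 in PKM2-/-. Pcx, pyruvate carboxylase, the classical anaplerotic enzyme, had the smallest fall of the 24 in both genotypes (-0.80 in PKM2fl/fl and -0.92 in PKM2-/-). In RefSeq it overlaps Lrfn4, whose mean was 23.5% of that of Pcx, and reads of the pair cannot be told apart where the genes share bases and strand was not used. Glud1, glutamate dehydrogenase, which makes 2-oxoglutarate from glutamate, read 2688, 2962 and 2695 in the PKM2fl/fl sham hearts and 2792, 2735 and 3348 after MI, and 2931, 2948 and 2737 in the PKM2-/- sham hearts and 3320, 2910 and 2959 after MI. It was not called in either genotype (log2 fold change 0.08, 95% interval -0.12 to 0.29, and 0.09, -0.11 to 0.29).

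Since enzymes of a family share a sample, their ratio within a library does not depend on how libraries are scaled. It can still depend on the cell makeup of the sample, and that part was not tested. Over 10 ratios fixed from the families, the mean change from sham to MI on the log2 scale was tested with an exact permutation test, two-sided, in which MI and sham were exchanged within genotype (400 arrangements, smallest p 0.005). Each ratio is of normalized counts and so includes the lengths of the transcripts, and only its change is read. Idh1 over Idh2 was between 0.0465 and 0.0551 in PKM2fl/fl sham hearts and between 0.115 and 0.378 after MI, and between 0.0511 and 0.0741 and between 0.167 and 0.262 in PKM2-/-. That is a rise of 1.90 on the log2 scale (exact permutation p = 0.005, adjusted p = 0.00625 over the 10 ratios), with no overlap between sham and MI in either genotype.

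Me2 over Me3 rose more than any other ratio of the 10, from between 0.123 and 0.167 to between 0.498 and 1.39 in PKM2fl/fl and from between 0.134 and 0.189 to between 1.05 and 1.26 in PKM2-/- (2.67, exact permutation p = 0.005, adjusted 0.00625). Within the 3 NAD-linked subunits the balance moved away from the regulatory ones. Idh3b over Idh3a went from between 1.26 and 1.53 to between 0.716 and 1.08 in PKM2fl/fl and from between 1.01 and 1.15 to between 0.788 and 1.00 in PKM2-/- (-0.49, exact permutation p = 0.005, adjusted 0.00625). Sucla2 over Suclg2 went from between 3.04 and 3.51 to between 1.87 and 2.66 and from between 2.98 and 3.62 to between 2.11 and 2.27 (-0.56, with the same p values).

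Of the rest, Idh2 over Idh3a changed by -0.70, Idh3g over Idh3a by -0.24, Suclg1 over Suclg2 by -0.36 and Me1 over Me3 by 0.45 on the log2 scale, each at the smallest p the design allows. The cytosolic over mitochondrial ratios of the shuttle enzymes changed as well, Got1 over Got2 by -0.29 and Mdh1 over Mdh2 by -0.26 (exact permutation p = 0.01, adjusted 0.01), and both overlapped in PKM2fl/fl, the Got ratio between sham (between 1.02 and 1.46) and MI (between 0.897 and 1.1) and the Mdh ratio between sham (between 2.49 and 3.12) and MI (between 2.04 and 2.51). The other 8 ratios overlapped in neither genotype. All 10 ratios passed the adjustment, but how many ratios of other gene pairs would do so was not tested. Of all single genes tested, 59.0% had no overlap between MI and sham in PKM2fl/fl and 62.3% in PKM2-/-. The counts of ratios are therefore not read as particular to these families.

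**Figure D3:**
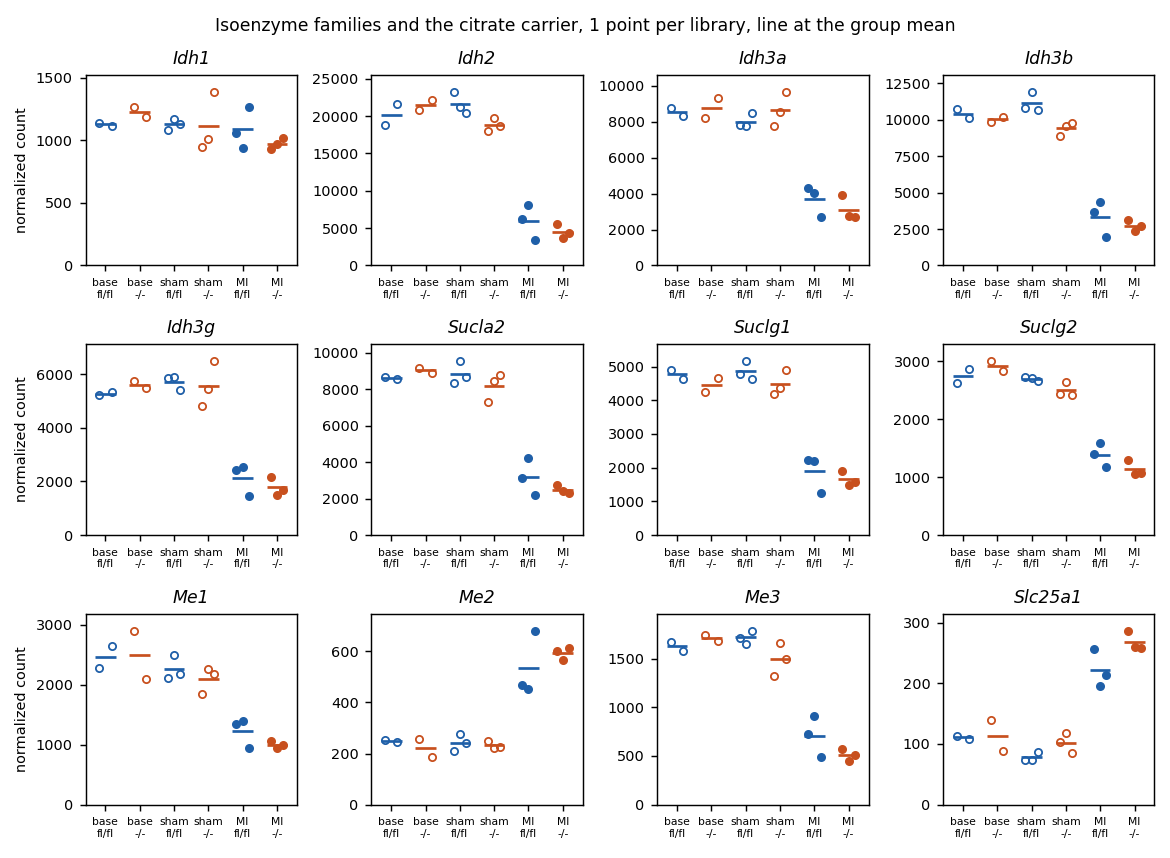
Each panel gives the normalized count of 1 gene, 1 point per library, by group, open for baseline and sham and filled for MI, blue for PKM2fl/fl and orange for PKM2-/-, with the group mean as a line and the vertical axis from 0. Idh1 lies between 931 and 1388 in all groups while Idh2 and the Idh3 subunits drop after MI, and Me2 and Slc25a1 rise while Me3 drops.

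Per kilobase of merged exon (GENCODE M39 gene models), the level in PKM2fl/fl sham hearts spanned from Mdh1, at 6983 ± 399 normalized counts per kilobase (SD, n = 3), to Me2, at 23.7 ± 3.19. After Mdh1 came Ogdh (3703 ± 63.9), then Idh3b (2675 ± 164), Idh2 (2556 ± 169), Cs (2542 ± 312) and Sdha (2434 ± 38.4), the last 4 of which had overlapping ranges from 1 to the next. At the low end stood Pcx, Aco1, Me3, Slc25a1, Pck2 and Me2, from 143 ± 9.12 for Pcx downward. Merged exons take in every annotated transcript of a gene and came to 29145 bases for Me3 against 6125 for Me1. The order therefore depends on the gene models, and which transcripts were expressed was not tested. Of the 29 neighbouring pairs in this order, 14 had ranges that overlapped. After MI the order at the top held for Mdh1 and Ogdh in both genotypes. Further down, Glud1 went from rank 21 in PKM2fl/fl sham hearts to 16 after MI and to 13 in PKM2-/- after MI, and Me3 from 27 to 30 in both. Slc25a1 went from rank 28 to 26 and 24.

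These are bulk samples, in which fewer cells of a type and less RNA per cell cannot be told apart. Cardiomyocyte genes of the sarcomere and of calcium handling fell in the same hearts, 11 of 12 in PKM2fl/fl and 12 of 12 in PKM2-/-, with a median log2 fold change of -1.70 and -2.02. Of all genes, 25.3% were lower in PKM2fl/fl and 28.1% in PKM2-/-. The 24 falling genes had medians of -1.39 and -1.57, and 22 of them in PKM2fl/fl and 23 in PKM2-/- lay above the sarcomere median. Taken library by library, their mean log2 level stood -1.16, -1.07 and -1.91 from the sham mean in PKM2fl/fl MI replicates 1, 2 and 3, where the sarcomere list stood -1.27, -1.23 and -2.41. In PKM2-/- the values were -1.32, -1.70 and -1.64, beside -1.70, -2.12 and -2.17. The fall was thus smaller than that of the sarcomere list in each of the 6 MI hearts, by 0.109 to 0.524.

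When libraries were scaled to those 12 cardiomyocyte genes in place of the size factors, the direction turned, with 0 of 30 lower and 12 higher in PKM2fl/fl (median 0.32) and 0 lower and 18 higher in PKM2-/- (median 0.48). On that scale 83.8% and 88.0% of all genes were called higher and their median was 1.64 and 2.01, and 26 of the 30 lay below it in each genotype, with Glud1, Me2, Pck2 and Slc25a1 above. With the size factors again, 24.8% of all genes were higher in PKM2fl/fl and 28.7% in PKM2-/-. Leukocyte markers rose in the same hearts, 9 of 12 tested in each genotype, with a summed level of between 6319 and 12682 normalized counts in PKM2fl/fl sham and between 27692 and 45526 in MI hearts, and between 8600 and 11167 and between 37545 and 42281 in PKM2-/-. Of 8 fibroblast markers 7 rose too and 1 fell (Dcn, log2 fold changes -0.53 and -0.58, named after its values were seen), and their sum went from between 27039 and 50931 to between 202443 and 231341 and from between 30713 and 50482 to between 178481 and 240463. Endothelial markers summed to between 20091 and 22498 and between 23199 and 25008 in PKM2fl/fl and to between 22908 and 24290 and between 24322 and 27529 in PKM2-/-, with 2 of 7 higher and 1 lower in PKM2fl/fl and 2 higher and 2 lower in PKM2-/-. Of 5 erythroid markers 0 were called, and of 4 atrial genes 1 was, Nppa, higher by 1.28 and 1.33 on the log2 scale. The other 3 atrial genes had estimates below 0 in each genotype and were not called. The median over the 4 was -1.02 in PKM2fl/fl and -0.91 in PKM2-/-. Of 5 adipocyte markers only 1 passed the filter and it was not called, and of 7 rRNA-related loci tested 4 were higher in PKM2fl/fl and 1 was lower in PKM2-/-. The defining markers of these types were above 0 in every library except Cd3e, which was 0 in 3, and the part of cell makeup in the fall of the 24 genes was not tested.

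**Figure D4:**
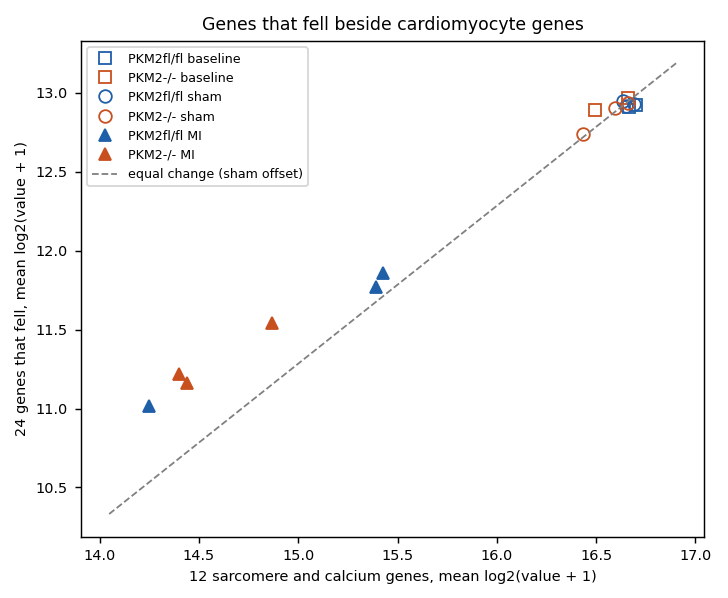
Each point is 1 library, with the mean log2(value + 1) of the 12 sarcomere and calcium genes across and that of the 24 genes that fell upward, and the dashed line marks equal change from the sham libraries. All 6 MI libraries (triangles) lie below and to the left of the others and above the line, by 0.109 to 0.524 relative to the sham mean of their own genotype.

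The genotype comparisons ask whether the loss of PKM2 moved these transcripts. At baseline and after sham none of the 30 was called, where 0.00972% of all genes were called in each comparison, and none had an unadjusted p under 0.05. edgeR, DESeq2 and limma-voom also called 0. The median log2 difference, PKM2-/- minus PKM2fl/fl, was 0.00289 at baseline and -0.07 after sham. In both comparisons every PKM2-/- library had a higher rRNA-related share than every PKM2fl/fl library, and the part of that share was not tested. The genes with the smallest p at baseline were Pcx, which read 782 and 858 in PKM2fl/fl and 941 and 955 in PKM2-/- (log2 difference 0.21, 95% interval -0.20 to 0.62), Me2, at 253 and 245 and 256 and 187 (-0.19, -0.60 to 0.23), and Idh1, at 1143 and 1117 and 1266 and 1187 (0.12, -0.23 to 0.46). For Pcx and Idh1 both knockout hearts lay above both control hearts, and for Me2 the values overlapped.

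After sham, Slc25a1 had the smallest p, at 73, 74 and 87 in PKM2fl/fl and 103, 118 and 85 in PKM2-/-, which overlap (log2 difference 0.38, 95% interval -0.01 to 0.77, adjusted p = 0.521). Next were Dld (-0.19, -0.49 to 0.12) and Me3 (-0.21, -0.57 to 0.15). For Dld every knockout heart was below every control heart, yet the adjusted p was 0.752. Replicate 1 of PKM2-/- sham was the lowest of its group for 21 of the 24 genes that fell after MI.

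After MI none of the 30 was called either, against 0.967% of all genes, and 3 had an unadjusted p under 0.05 (Me3, Suclg2 and Ogdh). edgeR, DESeq2 and limma-voom called 0. Of the 30, 27 were lower in PKM2-/- by their estimate, with a median of -0.22. Me3 read 727, 912 and 490 in PKM2fl/fl and 576, 449 and 509 in PKM2-/- (log2 difference -0.43, 95% interval -0.79 to -0.08, adjusted p = 0.207). Suclg2 read 1402, 1594 and 1169 against 1290, 1063 and 1069 (-0.28, -0.51 to -0.04, adjusted p = 0.214), and Ogdh 17319, 16476 and 7933 against 10689, 8464 and 8879 (-0.50, -0.98 to -0.01, adjusted p = 0.281). In all 3 the ranges overlapped through replicate 3 of PKM2fl/fl MI alone, since the other two control hearts were above every knockout heart.

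That library decided the comparison. It was the lowest of the PKM2fl/fl MI group for 24 of the 24 genes that fell, and the coefficient of variation of these genes had a median of 29.4% in that group, against 5.63% in PKM2fl/fl sham and 14.6% in PKM2-/- MI hearts. Its sarcomere genes were lowest in the group too (-2.41 from sham against -1.27 and -1.23), and 44.7% of its reads were from rRNA-related loci. Without it, 20 of the 30 genes were called lower in PKM2-/- than in PKM2fl/fl after MI, by -0.36 (Pcx) to -0.86 (Ogdh), with a median of -0.46 over the 30. In that fit 7.71% of all genes were called lower and 3.40% higher. The 10 not called without it were Aco1, Idh1, Idh3a, Dlst, Sdhd, Pck2, Me2, Got1, Glud1 and Slc25a1. Leaving out another heart of that group moved the difference the other way. The median was -0.11 without replicate 1 and -0.061 without replicate 2, with 0 of the 30 called, where 0.0973% and 0.0827% of all genes were. With all libraries over 40% rRNA-related reads left out together, which leaves 1 PKM2fl/fl MI heart whose spread is taken from the other groups, 11 were lower, against 4.77% of all genes. On the scale of the 12 cardiomyocyte genes the median difference was 0.24, with 0 called. The parts of the cardiomyocyte gene level and of the rRNA share in this difference were not tested.

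**Figure D5:**
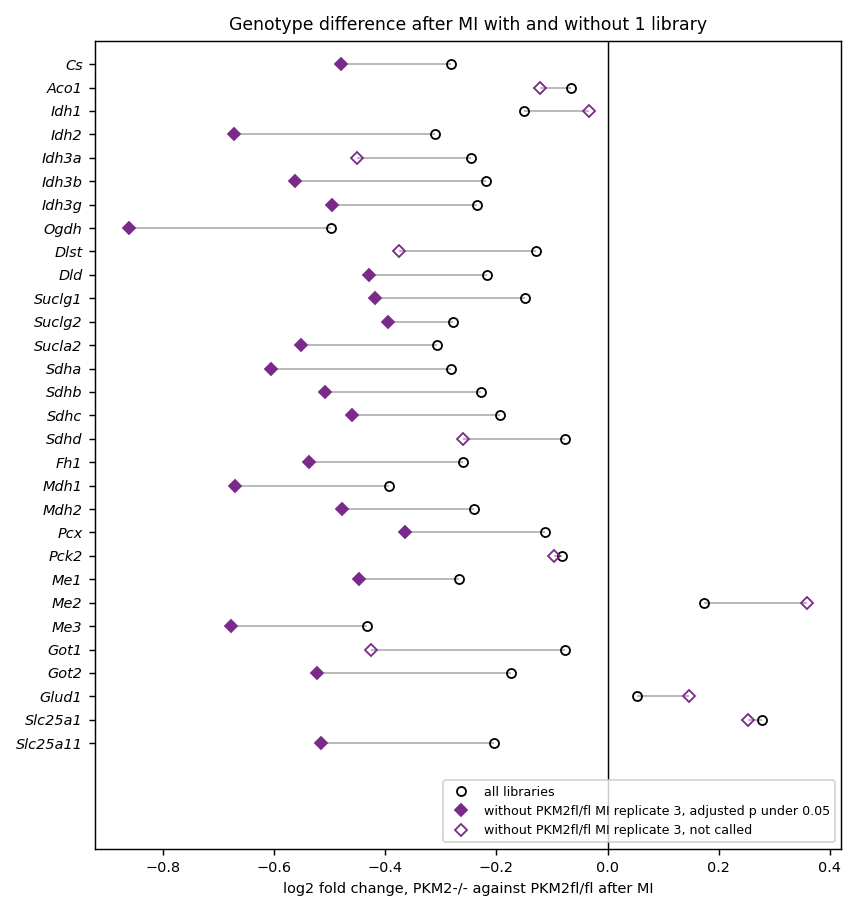
Open circles give the log2 fold change of PKM2-/- against PKM2fl/fl after MI with all libraries, and diamonds the same without replicate 3 of PKM2fl/fl MI, filled where the adjusted p was under 0.05. Without that library 20 genes, all lower in PKM2-/-, pass (7.71% of all genes were lower in that fit), with Ogdh the furthest at -0.86 against -0.50 with all libraries. Leaving out replicate 1 or replicate 2 of PKM2fl/fl MI in its place, not drawn, called 0.

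The test of whether MI acted differently in the 2 genotypes, the interaction, called 0 of the 30 and 0.00% of all genes, with 0 of the 30 at an unadjusted p under 0.05 and 0 called by edgeR, DESeq2 or limma-voom. The nearest were Ogdh (log2 difference of fold changes -0.51, 95% interval -1.19 to 0.18), Idh3a (-0.35, -0.86 to 0.16) and Cs (-0.35, -0.86 to 0.17), at adjusted p values of 0.708, 0.729 and 0.732. Without replicate 3 of PKM2fl/fl MI, Ogdh alone of the 30 was called (-0.87, adjusted p = 0.0181), where 2.37% of all genes were called, so a count of 1 in 30 is near that background.

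Sham surgery was compared with baseline to see what the operation itself did. None of the 30 was called in either genotype by limma-trend, edgeR, DESeq2 or limma-voom, where 0.190% of all genes were called in PKM2fl/fl and 5.14% in PKM2-/-, and 1 gene in each genotype had an unadjusted p under 0.05. In PKM2fl/fl that was Slc25a1, which read 112 and 109 at baseline and 73, 74 and 87 after sham (log2 fold change -0.50, 95% interval -0.94 to -0.07), the reverse of its change after MI. The same sham hearts enter both changes, so their opposite signs are not independent. Its MI values of 257, 196 and 213 were above baseline as well. Pck2 (-0.20, -0.51 to 0.11) and Aco1 (-0.10, -0.29 to 0.09) came next. In PKM2-/- it was Aco1, at 977 and 1015 and 842, 861 and 904 (-0.20, -0.39 to -0.0047), followed by Suclg2 (-0.22, -0.48 to 0.04) and Pck2 (-0.22, -0.53 to 0.10).

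Other genes of the cycle and its inlets, from a list of 38 of which 33 could be tested, moved mostly the same way, and 24 were lower and 1 higher in PKM2fl/fl, and 26 lower and 2 higher in PKM2-/-. Among all genes, 25.3% were lower and 24.8% higher in PKM2fl/fl, and 28.1% and 28.7% in PKM2-/-. Among those with the smallest adjusted p values in PKM2-/- were Pcca, a subunit of propionyl-CoA carboxylase (-0.72 in PKM2fl/fl and -1.04 in PKM2-/-), Mmut, methylmalonyl-CoA mutase (-1.49 in PKM2fl/fl and -1.72 in PKM2-/-), Mcee, methylmalonyl-CoA epimerase (-1.43 in PKM2fl/fl and -1.51 in PKM2-/-), and Slc25a12, an aspartate-glutamate carrier (-1.11 in PKM2fl/fl and -1.43 in PKM2-/-). Pcca, Mmut and Mcee lead propionyl-CoA into the cycle at succinyl-CoA. The gene that rose in both genotypes was Acly, ATP citrate lyase, which splits the citrate that Slc25a1 exports (0.90 in PKM2fl/fl and 0.97 in PKM2-/-, chosen after its values were seen).

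Of 10 regulators of mitochondrial gene expression, 9 were lower and 1 higher after MI in each genotype. The shares of all genes were 25.3% lower and 24.8% higher in PKM2fl/fl, and 28.1% and 28.7% in PKM2-/-. The coactivator Ppargc1a changed by -1.92 in PKM2fl/fl and -2.72 in PKM2-/- on the log2 scale, and its relative Ppargc1b by -1.20 in PKM2fl/fl and -1.81 in PKM2-/-. The estrogen-related receptors, whose element was searched above, changed by -1.26 in PKM2fl/fl and -1.25 in PKM2-/- (Esrra), -1.63 in PKM2fl/fl and -2.67 in PKM2-/- (Esrrb) and -1.53 in PKM2fl/fl and -2.35 in PKM2-/- (Esrrg). Ppara, a receptor for fatty acids, changed by -1.95 in PKM2fl/fl and -2.57 in PKM2-/-, and Perm1, a muscle regulator of oxidative genes, by -1.92 in PKM2fl/fl and -2.58 in PKM2-/-. Tfam, which drives mitochondrial DNA transcription, fell less (-0.77 in PKM2fl/fl and -0.60 in PKM2-/-), as did Gabpa (-0.29 in PKM2fl/fl and -0.31 in PKM2-/-). Nrf1, the factor whose element 4 of the promoters held, was the one that rose (0.41 in PKM2fl/fl and 0.30 in PKM2-/-). Of these 10, Esrrg was also lower in PKM2-/- than in PKM2fl/fl after MI (-0.99, adjusted p = 0.0319 in limma-trend), where 0.967% of all genes were called. The 12 sarcomere and calcium genes had a median of -0.44 in that comparison, with 0 called. The part of the cardiomyocyte gene level in the difference of Esrrg was not tested.

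Outside these lists, genes whose log2 level over the 16 libraries was among the most like the mean of the 30 were Atp5b, the catalytic beta subunit of ATP synthase (Pearson r = 0.997), Vdac1, the channel of the outer mitochondrial membrane (0.997), Acads, short-chain acyl-CoA dehydrogenase (0.997), and Phyh, a peroxisomal hydroxylase (0.997). Such values are set mainly by the step between MI and all other libraries, and 7.61% of 20546 other genes had r above 0.95. Within the 30, 24 did, while Me2 stood at -0.97, Slc25a1 at -0.90 and Pck2 at -0.87. The 30 make up the mean they are compared with, so their count is partly built in and is not set against the share of other genes.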

How the data were processed

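Left-ventricle RNA from 16 mice was depleted of rRNA and sequenced in paired ends. According to the study's methods and the submitters' processing notes, reads were trimmed with PRINSEQ, aligned to mm10 with HISAT2, counted per gene with featureCounts and normalized with DESeq2, and the tool versions and the strand and multi-mapping settings are not given in the sources used here. The authors deposited, per gene and library, a normalized signal (reads over the DESeq2 size factor of that library). The same table holds the authors' deposited log2 fold changes with standard errors, a Wald score and p-values for 1 comparison, which were not used. 0 columns were left without a sample.

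Every value was a whole multiple of 1 read (100% of values within 0.01), so reads were recovered for the depth and for the count tests. Shares of reads rest on 53962 to 539791 reads of the 30 genes per library, so counting error is small beside the spread between animals. limma 3.58.1 (trend) was fitted to log2(value + 1) of genes with a mean of at least 10, with all 16 libraries in 6 groups, and p-values were adjusted by Benjamini-Hochberg over 20576 genes. edgeR had been planned as the main test only for a table of raw counts. In data simulated for the PKM2fl/fl comparison of MI with sham over 20386 genes, 96% of 4-fold and 62% of 2-fold changes were recovered, with 10 false calls. The changed genes were drawn from all levels and the spread was set alike in all groups, which it was not among the 30 genes. Alternatives were other scalings, pseudocounts and filters, edgeR, DESeq2 and limma-voom, a replicate block and leaving out libraries. Leaving out the libraries with over 40% rRNA-related reads was chosen after seeing the data. Family ratios were tested by exact permutation.

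The 30 genes and all lists were chosen with earlier results of these data known. Values are given in full for the 6 genes with the smallest adjusted p in each direction of each MI comparison, the 3 with the smallest p where none was called, and the isoenzyme families. Each library is its own mouse, and replicate numbers pair no animals. A few genes that these rules would name are not reported here.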

Additional observations from a re-analysis of the deposited data

How the results depend on the processing

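For MI against sham, 27 of 30 genes were called in each genotype with every library left out in turn, and also under edgeR, DESeq2, limma-voom, another pseudocount and a replicate block. Replicate numbers did not pair the animals (correlations of deviations from -0.1955 to 0.1257 over 36 pairs, median -0.0266), and the replicate block gave 27 called (24 lower, 3 higher) after MI in both genotypes and 0 in every other comparison. Scaling to the cardiomyocyte genes reversed the direction, with 12 called in PKM2fl/fl and 18 in PKM2-/-, 0 of them lower, and moved the median of all genes by 1.64 and 2.01 there and by 0.45 between genotypes after MI. Scaling to the total count moved that median by -0.17 in PKM2fl/fl, 0.52 in PKM2-/-, 0.36 between genotypes after MI, -0.33 after sham and -0.59 at baseline. It left 24 lower and 2 higher in PKM2fl/fl, where Pck2 was no longer called, and 20 lower and 3 higher in PKM2-/-, where Suclg2, Sdhd, Pcx and Me1 were not. On that scale 17.6% of all genes were called lower and 11.5% higher in PKM2fl/fl, and 9.14% and 35.2% in PKM2-/-. PKM2-/- against PKM2fl/fl after MI called 0 to 20 with 1 library left out (20 without PKM2fl/fl replicate 3, where 11.1% of all genes were called), 2 in edgeR without a filter (4.26% of all genes) and 11 without the libraries over 40% rRNA-related reads (6.63%), and the interaction called 0 to 1 with 1 library left out. Under cardiomyocyte scaling the log2 fold changes that changed sign, in PKM2fl/fl and PKM2-/-, were Cs 0.44 and 0.45, Aco1 1.59 and 1.97, Idh1 1.58 and 1.82, Idh3a 0.50 and 0.50, Idh3g 0.17 and 0.34, Ogdh 0.24 and 0.086, Dlst 0.46 and 0.65, Dld 0.28 and 0.61, Suclg1 0.23 and 0.56, Suclg2 0.67 and 0.85, Sucla2 0.11 and 0.28, Sdhb 0.049 and 0.30, Sdhc 0.27 and 0.52, Sdhd 0.34 and 0.77, Fh1 0.19 and 0.39, Mdh1 0.059 and 0.25, Mdh2 0.35 and 0.47, Pcx 0.83 and 1.07, Me1 0.73 and 0.93, Me3 0.32 and 0.45, Got1 0.016 and 0.13, Got2 0.32 and 0.39, Slc25a11 0.090 and 0.26, and in PKM2-/- alone Idh3b 0.20 and Sdha 0.17. The genes near 0 changed sign most easily. In PKM2fl/fl after MI, Aco1 was 0.077 and Idh1 0.067 scaled to reads outside rRNA-related loci, Glud1 was -0.093 scaled to the total count, and Aco1 was 0.013 and Glud1 -0.023 without the libraries over 40%. With 1 library left out they ranged from -0.089 to 0.0044 (Aco1), -0.18 to 0.042 (Idh1) and -0.0082 to 0.14 (Glud1). In PKM2-/- Aco1 was 0.49, 0.33 and 0.0092 under those 3 settings (total count, outside rRNA-related loci, without libraries over 40%) and -0.042 to 0.0092 with 1 library left out, and Idh1 0.34 and 0.18 under the first 2. Scaling to reads outside rRNA-related loci gained 2 calls in PKM2-/-, Aco1 and Glud1 (0.44), both higher, for 24 lower and 5 higher, where 41.6% of all genes were called higher and the median of all genes was 0.36. Scaled to the total count, Pcx was -0.38 and Idh1 -0.47 at baseline between genotypes, Suclg2 0.089 after MI, Aco1 0.018 for sham against baseline in PKM2-/-, and the interaction 0.18 for Ogdh, 0.34 for Idh3a and 0.34 for Cs. Idh1 at baseline was -0.0076 outside rRNA-related loci, and Me2 there ranged from -0.41 to 0.042 with 1 library left out. Under cardiomyocyte scaling Me3 was 0.019 and Suclg2 0.18 after MI, and the interaction 0.0049 for Idh3a and 0.011 for Cs. Beyond the scalings' own construction the cause was not tested. With 2 or 3 hearts per group small differences may be missed. In the simulated comparison 20% of 1.5-fold changes were recovered. That share covers genes of all levels, whereas 25 of the 30 averaged 1000 normalized counts or more, so it is not the share for these genes.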
